A study of Mus musculus with 2 samples.

Results

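Early B cells are the B lineage cells that a sort of mouse bone marrow progenitors carried along, and 114 of the 7633 barcodes past the filter were such cells. A barcode past the filter had at least 1000 genes and at most 10% of its unique molecular identifiers (UMIs, each standing for 1 captured transcript) from mitochondrially encoded genes. The cells were chosen by their own counts: a barcode was an early B cell when it held at least 1 UMI of Ebf1, at least 2 of Cd79a, at least 2 of Vpreb1, Vpreb3 and Igll1 together and at most 1 of Siglech. This gave 77 of 4343 barcodes in the library of animals with LCR1 knocked out (LCR1-/-, KO) and 37 of 3290 barcodes in the wild-type library (LCR1+/+, WT). Each library was made from pooled animals of the C57BL/6 strain, 8 to 12 weeks old, with as many males as females. Viable CD45+, lineage-negative, CD127+ cells, CD127 being the alpha chain of the IL-7 receptor, were sorted with a purity above 90% and run on the 10x Genomics 3' platform. The study set out to follow innate lymphoid cell (ILC2) development without LCR1.

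The antibodies of the lineage mix are not given in the sources used here, so which B cells the sort had already removed cannot be told. The labels give no position for LCR1, and no transcript was used to check the genotype. With 1 library per genotype there is no replicate and no test between genotypes. Intervals are exact 95% intervals that cover counting error only, and a difference between KO and WT is a difference between these 2 libraries. The early B cells held 1002369 UMIs in KO and 596648 in WT, at a median of 12308 and 9743 per cell, against 7152 and 5329 in the other barcodes past the filter. The deepest early B cell alone held 4.11% of these UMIs in KO and 13.0% in WT. The libraries shared 75 cell barcode sequences among 8476 KO and 20293 WT barcodes. Of the early B cell barcodes 1 was also listed in the opposite library, where it was not an early B cell.

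B cells arise in the marrow when the E protein Tcf3 and the factors Ebf1 and Pax5 switch on B lineage genes in lymphoid progenitors. In pro-B cells Rag1 and Rag2 cut the immunoglobulin heavy chain locus and Dntt adds bases at the joins. A heavy chain that can be made then pairs with the surrogate light chain, built from the products of Vpreb genes and Igll1, and with Cd79a and Cd79b forms the pre-B cell receptor. Signals from that receptor and from the IL-7 receptor accompany a burst of division in large pre-B cells, during which the Rag genes are turned down.

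The surrogate light chain genes Igll1 and Vpreb1 lie side by side on chromosome 16, at chr16:16860671-16863985 and chr16:16868403-16870843 on the minus strand (GRCm38, GENCODE M21). Vpreb3, which codes for a related protein, lies at chr10:75943057-75949657, and all 3 are protein-coding. Their RefSeq promoters (GRCm38.p6, the 250 bases before the start, 5′ to 3′) are shown because these are the genes whose summed UMIs chose the cells. The Vpreb1 and Vpreb3 windows end at RefSeq starts that lie inside the GENCODE spans. Capitals mark the E-box CAGGTG in either orientation, a motif that E proteins bind.
Igll1 (chr16:16863986-16864235, - strand): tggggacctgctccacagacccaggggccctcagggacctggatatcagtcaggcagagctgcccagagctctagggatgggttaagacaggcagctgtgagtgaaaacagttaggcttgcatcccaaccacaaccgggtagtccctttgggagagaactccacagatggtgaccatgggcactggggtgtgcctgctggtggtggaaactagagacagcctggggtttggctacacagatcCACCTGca
Vpreb1 (chr16:16869256-16869505, - strand): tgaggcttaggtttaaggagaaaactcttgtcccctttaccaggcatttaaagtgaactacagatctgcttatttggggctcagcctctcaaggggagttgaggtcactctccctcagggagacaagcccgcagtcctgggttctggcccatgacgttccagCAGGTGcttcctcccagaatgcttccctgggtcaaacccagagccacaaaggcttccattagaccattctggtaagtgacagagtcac
Vpreb3 (chr10:75948050-75948299, + strand): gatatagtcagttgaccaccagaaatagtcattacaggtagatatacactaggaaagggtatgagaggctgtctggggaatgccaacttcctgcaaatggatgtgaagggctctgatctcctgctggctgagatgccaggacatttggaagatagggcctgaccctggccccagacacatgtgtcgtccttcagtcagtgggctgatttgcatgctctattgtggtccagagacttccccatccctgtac
Between the match and the start lay 2 bases in Igll1 and 82 bases in Vpreb1. No match lay in the Vpreb3 window, nor in those of Rag2, Pou2af1, Pax5, Ebf1 and Dntt. Windows of Vpreb2, Cd79a, Blnk and Rag1 held a match too, Rag1 being lower and Igll1 and Vpreb1 higher in dividing cells. The same letters were found in 17.2% of 32851 RefSeq promoters of this length. Both strands were searched, and a match is a run of letters, not a shown binding site.

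The label was checked on its 5 marker genes. Pax5, the commitment factor of the B lineage and the marker outside the rule, stood at 229 CPM in KO and 203 CPM in WT early B cells, against 2.24 and 3.04 CPM in the other barcodes. CPM are UMIs per 1000000 of the summed UMIs of a set of cells. At least 1 Pax5 UMI was found in 58 of 77 KO cells (75.3%) and 29 of 37 WT cells (78.4%), against 1.36% and 1.44% of the other barcodes. With every cell thinned to 2000 UMIs these shares were 36.4% and 36.1%, against 0.329% and 0.796%. Thinning left out 1 WT early B cell that was too shallow.

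The rule itself chose the other markers, so their levels are given as a description. Ebf1, which opens B lineage genes, was at 2034 CPM in KO and 1867 CPM in WT early B cells, against 65.4 and 43.0 CPM in the other barcodes. Cd79a, a signalling chain of the receptor, was at 829 CPM in KO and 893 CPM in WT early B cells, against 12.8 and 10.4 CPM in the other barcodes. Vpreb3 was at 996 CPM in KO and 903 CPM in WT early B cells, against 2.43 and 5.67 CPM in the other barcodes. Per cell, Ebf1 ran from 1 to 153 UMIs with a median of 20 in KO, and from 1 to 97 UMIs with a median of 24 in WT. Siglech, a surface gene of plasmacytoid dendritic cells that the rule kept at or under 1, was found in 1 KO and 1 WT cell.

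Just inside the limits stood 6 KO and 6 WT cells with Cd79a at 2 UMIs, and 7 KO and 2 WT cells with a surrogate light chain sum of 2. Just outside stood 17 KO and 31 WT barcodes that failed on Cd79a alone, and 70 KO and 19 WT barcodes that failed on the surrogate sum alone. The 70 KO barcodes had a median of 8 Ebf1 and 3 Cd79a UMIs, and 26 of them had a Pax5 UMI. Of the 19 WT barcodes, with medians of 5 and 2 UMIs, 7 had one. On Siglech alone 2 KO and 3 WT barcodes failed, and on Ebf1 alone 1 WT barcode.

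**Figure D1:**
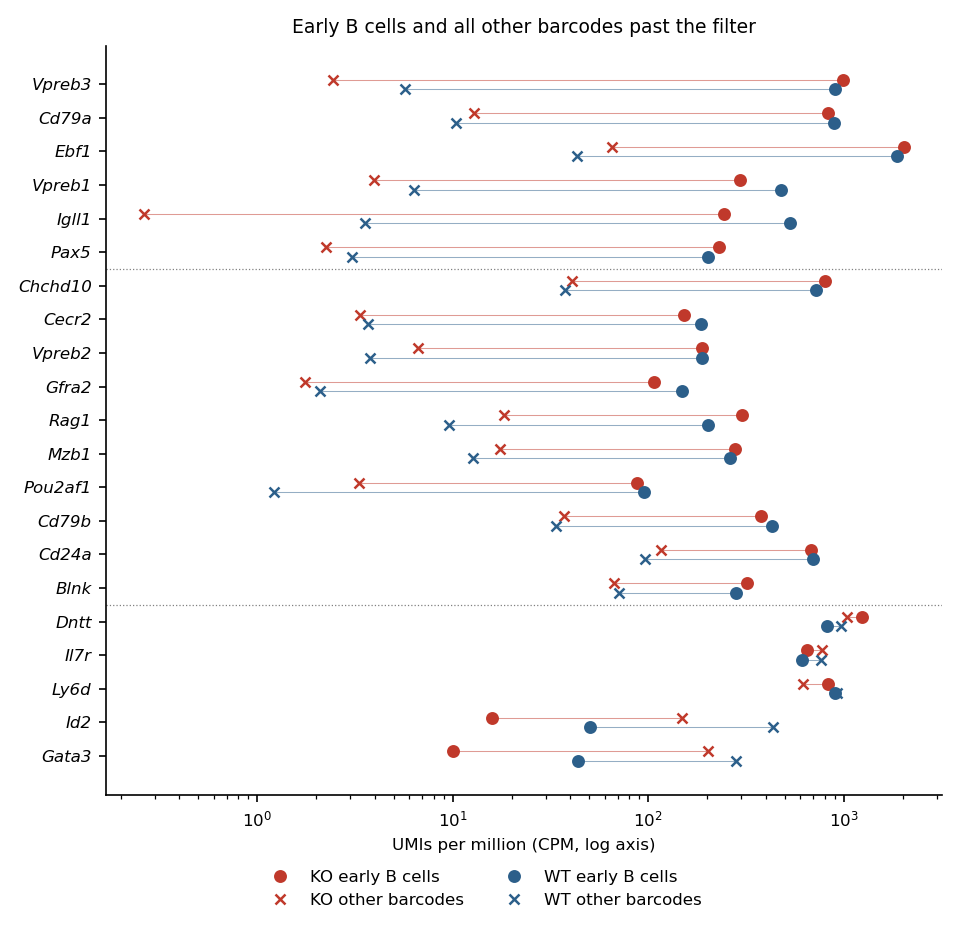
Summed levels (CPM, log axis) of 21 genes in early B cells (circles) and in all other barcodes past the filter (crosses), KO above WT for each gene. The top block holds Pax5 and genes of the rule, the middle block genes outside the rule that were higher in early B cells of both libraries, and the bottom block genes of neighbouring stages or other lineages. Early B cells are to the right of the other barcodes in the top and middle blocks.

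All genes, those of the rule among them, were set against all other barcodes past the filter. A gene counted as higher or lower when it had at least 50 UMIs over both sets and 50 CPM in the higher set, differed at least 2-fold and had a counting interval that left out 1, in each library. Of 3233 genes measured this way, 68 (2.1%) were higher and 124 (3.84%) lower in the early B cells of both libraries. Since the rule reads B lineage genes from the same cells, no support is drawn from these counts.

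Among the 7 pre-B cell receptor genes, Ighm, the heavy chain constant region, did not reach 2-fold in KO. The other 6 were higher, of which Igll1, Vpreb1, Vpreb3 and Cd79a are terms of the rule. Outside the rule these were Cd79b, the partner of Cd79a, at 379 CPM in KO and 431 CPM in WT early B cells, against 37.1 and 33.8 CPM in the other barcodes, and Vpreb2 at 188 CPM in KO and 189 CPM in WT early B cells, against 6.61 and 3.78 CPM in the other barcodes. Vpreb2 is a near copy of Vpreb1, and 30 of 251 words of 50 bases in the last 300 bases of its transcript were the same in both, so some UMIs cannot be assigned firmly. Ighm was at 1155 CPM in KO and 1306 CPM in WT early B cells, against 699.8 and 496 CPM in the other barcodes.

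Of the transcription factors of the B lineage, 6 of 18 measured were higher and 2 lower. Beside Ebf1 and Pax5, Pou2af1, a coactivator of immunoglobulin genes, was at 87.8 CPM in KO and 95.5 CPM in WT early B cells, against 3.32 and 1.22 CPM in the other barcodes. Foxo1, which drives Rag transcription, was at 99.8 CPM in KO and 58.7 CPM in WT early B cells, against 24.0 and 20.8 CPM in the other barcodes. Lef1 and Bach2 were the other two higher ones. Irf8, a factor of dendritic cells as well as B cells, was lower, at 111 CPM in KO and 126 CPM in WT early B cells, against 429 and 647 CPM in the other barcodes, and so was Ikzf3, a later Ikaros family member, at 17.0 CPM in KO and 53.6 CPM in WT early B cells, against 109 and 117 CPM in the other barcodes. Irf4, which acts from the pre-B stage on, was under the minimum of 50 CPM and stood at 39.9 CPM in KO and 38.5 CPM in WT early B cells, against 1.73 and 1.75 CPM in the other barcodes.

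The recombination genes divided. Rag1 was 16.5-fold higher in KO and 21.1-fold higher in WT early B cells than in the other barcodes, at 300.3 CPM in KO and 203 CPM in WT early B cells, against 18.2 and 9.59 CPM in the other barcodes. Rag2 was also higher, at 68.8 CPM in KO and 62.0 CPM in WT early B cells, against 15.9 and 17.4 CPM in the other barcodes. Dntt did not differ by 2-fold, at 1243 CPM in KO and 818 CPM in WT early B cells, against 1044 and 973 CPM in the other barcodes. A set chosen after the data were seen shows where Dntt was higher still. In the 326 KO and 188 WT barcodes with Ebf1 and Ly6d UMIs and at most 1 Siglech UMI that fell outside the rule, Dntt was at 2399.7 and 2091 CPM and Rag1 at 89.0 and 49.9 CPM.

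Surface genes of progenitors and of pro-B cells were both present, and those of later stages were sparse. Cd24a, the heat stable antigen that rises as pro-B cells mature, was at 677 CPM in KO and 699 CPM in WT early B cells, against 117 and 96.2 CPM in the other barcodes. Il7r did not differ by 2-fold, at 652 CPM in KO and 612 CPM in WT early B cells, against 774 and 762 CPM in the other barcodes, in a sort that selected its product. Flt3, a receptor of progenitors that Pax5 represses, was still at 214 CPM in KO and 156 CPM in WT early B cells, against 174 and 209 CPM in the other barcodes. Cd34, a progenitor marker, was lower, at 20.95 CPM in KO and 38.5 CPM in WT early B cells, against 99.9 and 104 CPM in the other barcodes. Bst1 (BP-3) had 25 and 18 UMIs and Enpep (BP-1), both pre-B surface enzymes, 0 and 2. Il2ra, a small pre-B marker, had 6 and 10 UMIs.

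Of the genes of mature B cells, the defining surface genes were at or near 0. Ms4a1 (CD20) had 1 UMI in KO and 0 in WT, Fcer2a (CD23) 0 and 0, Cr2 (CD21) 1 and 1, and Cd22 3 and 5. Ighd, the delta constant region, had 25 and 17 UMIs. A count of 0 allows up to 3 UMIs in that library. Igkc, the kappa light chain constant region, was at 119 CPM in KO and 285 CPM in WT early B cells, against 1039 and 181 CPM in the other barcodes, so its level in early B cells of KO was below that of the KO barcodes around them.

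Several other genes stood apart in both libraries without being in the rule. Chchd10, a mitochondrial protein gene, was at 803 CPM in KO and 726 CPM in WT early B cells, against 40.8 and 37.7 CPM in the other barcodes. Cecr2, a chromatin remodelling factor, was at 153 CPM in KO and 186 CPM in WT early B cells, against 3.37 and 3.67 CPM in the other barcodes. Mzb1, a chaperone of immunoglobulin assembly, was at 277 CPM in KO and 261 CPM in WT early B cells, against 17.4 and 12.6 CPM in the other barcodes. Gfra2, a receptor for neurotrophic factors, was at 107 CPM in KO and 149 CPM in WT early B cells, against 1.75 and 2.10 CPM in the other barcodes. Blnk, the adaptor that links the receptor to its kinases, was at 321 CPM in KO and 282 CPM in WT early B cells, against 67.1 and 71.1 CPM in the other barcodes. The further genes among the 25 with the widest gap were Bfsp2, Myl4, Dlg2, Akap12, Pnp, Arl5c, Siglecg, Lrmp and Slc25a1. In the Ebf1 and Ly6d barcodes outside the rule, described above, Chchd10 was at 128 CPM in KO and 91.0 CPM in WT. Blnk was there at 143 and 109 CPM, Mzb1 at 70.9 and 34.9, Cecr2 at 13.9 and 7.95 and Gfra2 at 8.22 and 12.8. Levels above those of all other barcodes were thus not particular to early B cells, although early B cells were higher still.

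On the lower side stood genes of innate lymphoid and T cells. Id2, which blocks E proteins and is needed for innate lymphoid cells, was at 16.0 CPM in KO and 50.3 CPM in WT early B cells, against 149 and 433 CPM in the other barcodes. Gata3, a factor of ILC2 and T cells, was at 9.98 CPM in KO and 43.6 CPM in WT early B cells, against 203 and 283 CPM in the other barcodes. Zbtb16 was at 7.98 CPM in KO and 6.70 CPM in WT early B cells, against 84.0 and 71.1 CPM in the other barcodes and Bcl11b at 5.99 CPM in KO and 6.70 CPM in WT early B cells, against 105 and 71.5 CPM in the other barcodes, and both mark innate lymphoid and T cell precursors. Cd7 and Thy1, surface genes of T and innate lymphoid cells, were at most 6.98 CPM in early B cells and at least 64.4 CPM in the other barcodes. In the Ebf1 and Ly6d barcodes outside the rule, described above, these genes were also lower than in all other barcodes. There Bcl11b was at 9.49 CPM in KO and 6.63 CPM in WT, and Zbtb16 at 9.91 and 12.8 CPM. Gata3 was at 19.4 and 59.2 CPM, and Id2 at 32.3 and 97.6 CPM. Low levels of these genes were thus not particular to early B cells. Of the 14 genes listed for other lineage fates, 8 of the 10 measured were lower and none was higher. Bcl2, a survival gene, was also lower, at 54.9 CPM in KO and 95.5 CPM in WT early B cells, against 390.3 and 379 CPM in the other barcodes.

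The early B cells were not alike among themselves, and Igll1 was a gene in which they differed. Igll1 was found in 32 of 77 KO cells and 25 of 37 WT cells, with up to 20 and 39 UMIs in a cell. Vpreb1 was found in 43 and 24 cells, while Vpreb3 was found in 75 and 36. Both genes are terms of the rule, so what follows of the pair describes the cells it chose. Across cells thinned to 2000 UMIs, Igll1 and Vpreb1 had a Pearson correlation of 0.313 in 77 KO cells and 0.641 in 36 WT cells, which share their library and, once thinned, their depth. In the 32 KO and 25 WT cells with an Igll1 UMI and in the cells without one, Vpreb1 was at 526 and 63.4 CPM in KO, and at 585 and 50.1 CPM in WT. Lef1 was at 117 and 15.9 CPM in KO, 7.35-fold (3.49 to 17.8), and at 65.0 and 16.7 CPM in WT on 31 and 2 UMIs, 3.90-fold with an interval of 0.992 to 33.6 that includes 1. Cells with Igll1 were deeper, with medians of 13640.5 against 11268 UMIs in KO and 17919 against 5514 in WT, and the part of depth in this split was not tested.

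**Figure D2:**
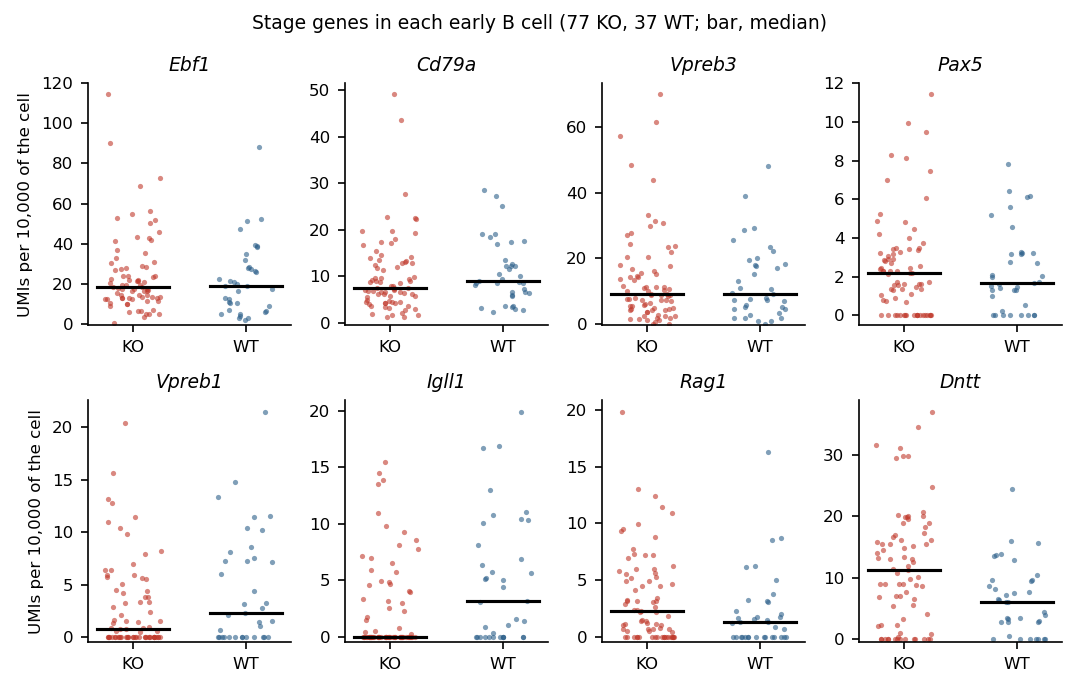
UMIs per 10000 UMIs of the cell for 8 stage genes, 1 point per early B cell, KO (77 cells) left of WT (37 cells), with the median as a bar. Ebf1, Cd79a and Vpreb3 have medians above 0 in both libraries, while the median of Igll1 is at 0 in KO and above 0 in WT.

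Cells in division differed from the others in Igll1, Vpreb1 and Rag1, in the same direction in both libraries. Cells were called in cycle when at least 1% of their UMIs came from 52 S, G2 and M phase genes, a limit with 8 KO and 7 WT cells within 20% of it. In the 21 KO and 20 WT cells in cycle Igll1 was higher than in the others, at 396 CPM in cycle and 157 CPM outside it in KO, and at 649 CPM in cycle and 228 CPM outside it in WT. Vpreb1 followed, at 453 CPM in cycle and 199.6 CPM outside it in KO, and at 582 CPM in cycle and 209.8 CPM outside it in WT. Vpreb3 was at 1065 CPM in cycle and 955 CPM outside it in KO, and at 747 CPM in cycle and 1307 CPM outside it in WT. Rag1 was lower in cycle, at 132 CPM in cycle and 399 CPM outside it in KO, and at 142 CPM in cycle and 359.6 CPM outside it in WT. The ratio was 0.331 (0.238 to 0.451) in KO and 0.395 (0.272 to 0.573) in WT. Sox4 and Tcf4, factors of earlier progenitors, and the survival gene Mcl1 were also lower in cycle in both libraries. Dntt was lower in cycle in KO, at 649.5 CPM in cycle and 1592 CPM outside it in KO, but not in WT, at 814 CPM in cycle and 827 CPM outside it in WT. Flt3 was at 94.3 CPM in cycle and 285 CPM outside it in KO, and at 139.6 CPM in cycle and 198 CPM outside it in WT. Cd24a was at 1062 CPM in cycle and 451 CPM outside it in KO, and at 739.9 CPM in cycle and 593 CPM outside it in WT. The cells in cycle were deeper, with medians of 18425 UMIs against 11696 in KO and 19796 against 6225 in WT. Whether these splits differ between the libraries was not tested.

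**Figure D3:**
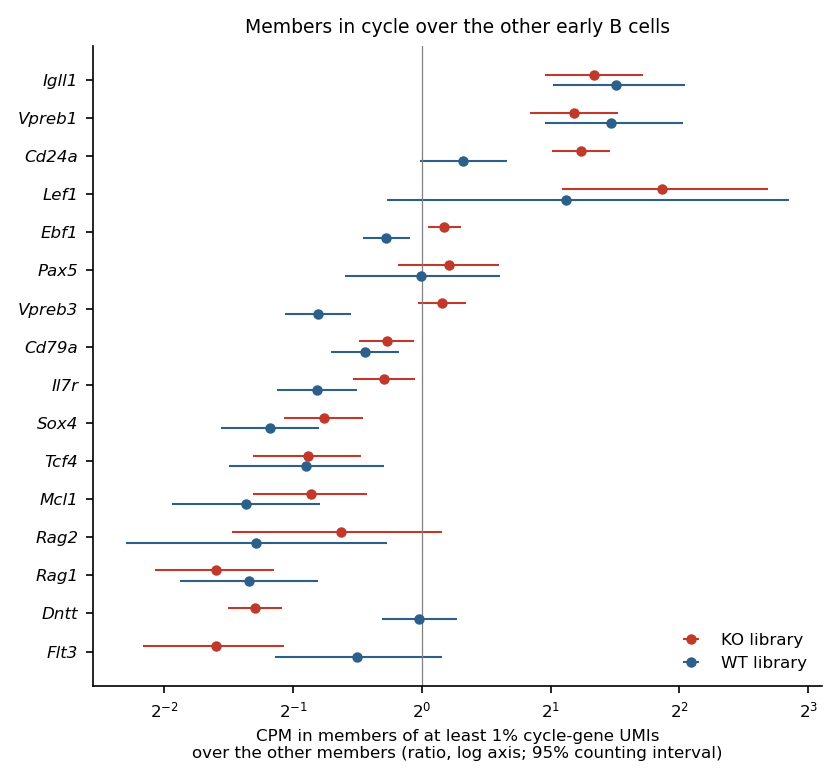
Ratio of summed levels in early B cells in cycle (21 KO, 20 WT) over the other early B cells (56 KO, 17 WT) on a log axis, with exact 95% counting intervals, KO above WT for each gene. Igll1 and Vpreb1 lie to the right of 1 and Rag1, Sox4, Tcf4 and Mcl1 to the left of 1 in both libraries.

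The share of early B cells was higher in KO as counted, and the point values were level after thinning. Early B cells made up 1.77% (1.40 to 2.21) of barcodes past the filter in KO and 1.12% (0.793 to 1.55) in WT. When every barcode was thinned to 2000 UMIs and the rule read on the thinned counts, they were 27 of 4332 in KO, or 0.623% (0.411 to 0.906), and 19 of 3051 in WT, or 0.623% (0.375 to 0.971). The ratio of the shares was 1.58 (1.05 to 2.40) as counted and 1.00 (0.536 to 1.90) after thinning. The interval after thinning includes the ratio as counted, and the part of depth was not tested. Thinning left out 11 KO and 239 WT barcodes. The KO library was deeper, with a median of 7261 UMIs per barcode past the filter against 5372 in WT. With a minimum of 500 genes, which admits many shallow WT barcodes, the shares were 1.72% in KO and 0.466% in WT.

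**Figure D4:**
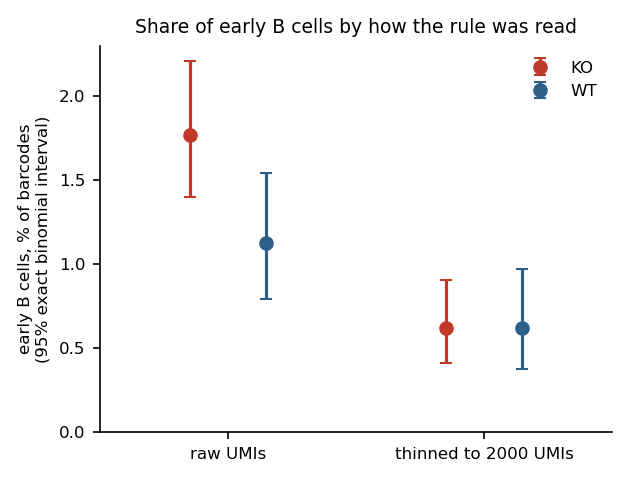
Early B cells as a percentage of barcodes past the filter, KO left of WT, with exact 95% binomial intervals, for the rule read on raw UMIs and on counts thinned to 2000 UMIs. The KO point is above the WT point on raw UMIs, and the points are level after thinning.

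Between KO and WT early B cells, 3408 genes were measured under the same limits of 50 UMIs, 50 CPM, 2-fold and interval. Of these 71 (2.08%) were higher and 77 (2.26%) lower in KO, and the median log2 difference over all measured genes was -0.08 on the log2(CPM + 5) scale. With TMM factors in place of totals the split was 98 higher and 53 lower, and with cells thinned to 2000 UMIs it was 20 higher and 15 lower. At 1.5-fold with no interval, 262 (7.69%) were higher and 390 (11.4%) lower. The commitment genes were close over all cells. Ebf1 was at 2034 CPM in KO and 1867 CPM in WT, 1.09-fold (1.01 to 1.17), and Pax5 at 229 CPM in KO and 203 CPM in WT, 1.13-fold (0.904 to 1.42). Ebf1 was 1.24-fold (1.12 to 1.37) in cells in cycle and 0.910-fold (0.808 to 1.03) outside it. Cd79a, Cd79b, Vpreb2, Vpreb3, Ighm and Blnk lay between 0.880-fold and 1.14-fold over all cells, and several turned with the cycle. Vpreb3 was 1.43-fold (1.23 to 1.66) in cycle and 0.731-fold (0.625 to 0.857) outside it. Ighm was 1.24-fold (1.09 to 1.40) in cycle and 0.586-fold (0.509 to 0.677) outside it. Cd79b was 1.23-fold (0.973 to 1.56) in cycle and 0.526-fold (0.419 to 0.664) outside it. Vpreb2 was 0.658-fold (0.448 to 0.956) in cycle and 1.17-fold (0.795 to 1.78) outside it, while Cd79a was below 1 in both, at 0.903-fold and 0.803-fold. Of the 18 measured transcription factors none passed the rule in either direction, and 2, Foxo1 and Erg, were at least 1.5-fold higher in KO. Because 2.08% of all measured genes were higher and 2.26% lower, few would pass in a short list. No result about a list is therefore read, here or below, where none or 1 passed.

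Igll1 was the member of the pre-B cell receptor list that passed, and it was lower in KO. It stood at 245 CPM in KO and 531 CPM in WT, 0.462-fold (0.389 to 0.547), and its share of cells with a UMI was 41.6% in KO and 67.6% in WT. After thinning the shares were 27.3% in KO and 50.0% in WT, with intervals of 17.7 to 38.6 and 32.9 to 67.1 that overlap. In the other barcodes they were 0.0705% in KO and 0.929% in WT. Vpreb1 was at 293 CPM in KO and 478 CPM in WT, 0.614-fold (0.520 to 0.725). Igll1 and Vpreb1 are terms of the rule, so their levels and shares describe the cells it chose. Cells in cycle, which carried more of both, were 27.3% (17.7 to 38.6) of early B cells in KO and 54.1% (36.9 to 70.5) in WT, and 26.0% and 52.8% after thinning. Within the cells in cycle Igll1 was at 396 CPM in KO and 649 CPM in WT, 0.610-fold (0.496 to 0.748). Outside cycle it was at 157 CPM in KO and 228 CPM in WT, 0.689-fold (0.469 to 1.03), an interval that includes 1. Vpreb1 in cycle was at 453 CPM in KO and 582 CPM in WT, 0.778-fold (0.636 to 0.9503), an interval that leaves out 1. Vpreb1 outside cycle was at 199.6 CPM in KO and 209.8 CPM in WT, 0.951-fold (0.650 to 1.43).

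Rag1 and Dntt were on the other side, below the 2-fold limit. Rag1 was at 300.3 CPM in KO and 203 CPM in WT, 1.48-fold (1.195 to 1.84), and Dntt at 1243 CPM in KO and 818 CPM in WT, 1.52-fold (1.37 to 1.69). In cycle Rag1 was at 132 CPM in KO and 142 CPM in WT, 0.930-fold (0.626 to 1.38). Outside cycle Rag1 was at 399 CPM in KO and 359.6 CPM in WT, 1.11-fold (0.835 to 1.497), while Dntt was at 1592 CPM in KO and 827 CPM in WT, 1.92-fold (1.61 to 2.32). In cycle Dntt was at 649.5 CPM in KO and 814 CPM in WT, 0.798-fold (0.674 to 0.943), so its direction turned between the splits, as that of Rag1 did within intervals that include 1. The WT cells outside cycle had higher CPM of some later B or antigen presentation genes. Outside cycle Igkc was at 108 CPM in KO and 899 CPM in WT, Cd74, the invariant chain, at 141 CPM in KO and 366 CPM in WT, and Spib, a factor of B cells and plasmacytoid dendritic cells, at 7.92 CPM in KO and 126 CPM in WT. Iglc1 and Iglc2, lambda constant regions, went the other way outside cycle, at 130 and 58.6 CPM in KO and 0 CPM in WT. The part of these genes in the difference of Dntt was not tested. Xrcc6, the Ku70 subunit that joins broken ends, was at 476 CPM in KO and 298 CPM in WT, 1.60-fold (1.34 to 1.91). None of the 7 genes measured in the recombination list passed the rule. Hmgb1 and Hmgb2, which bend the DNA that the Rag proteins cut, were at 0.886-fold and 0.949-fold over all cells. In cycle they were 1.31-fold (1.22 to 1.41) and 1.60-fold (1.47 to 1.73), and outside it 0.912-fold (0.793 to 1.05) and 0.979-fold (0.787 to 1.23). Of the receptor genes, Il7r was at 652 CPM in KO and 612 CPM in WT, 1.07-fold (0.937 to 1.22), and Flt3 at 214 CPM in KO and 156 CPM in WT, 1.38-fold (1.07 to 1.77), or 0.676-fold (0.432 to 1.04) in cycle and 1.44-fold (0.990 to 2.16) outside it, and none of the 8 measured in that list passed. Ptprc (CD45), on which the sort selected, was at 221 CPM in KO and 136 CPM in WT, 1.63-fold (1.26 to 2.13).

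Of 15 measured genes in a further list of early B genes, Lax1, an adaptor that damps antigen receptor signals, passed the rule. It was at 71.8 CPM in KO and 30.2 CPM in WT, 2.38-fold (1.41 to 4.24) over all cells. In cycle Lax1 was at 37.7 CPM in KO and 32.6 CPM in WT. Outside cycle it was at 91.9 CPM in KO and 24.0 CPM in WT, the latter on 4 UMIs. Akap12, a kinase scaffold that was higher in early B cells than in the other barcodes, was at 98.8 CPM in KO and 194 CPM in WT, 0.508-fold (0.385 to 0.670) over all cells. It was 0.849-fold (0.589 to 1.22) in cycle and 0.284-fold (0.181 to 0.445) outside it. The 11 measured genes of pre-B cell receptor signalling had a median of 0.16 and none passed. None of the 9 interferon response genes and none of the 6 homing genes measured passed, with medians of 0.31 and 0.37. Cxcr4, which holds precursors in the marrow, was at 58.9 CPM in KO and 85.5 CPM in WT, 0.689-fold (0.465 to 1.02).

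Part of the replication genes were lower in KO early B cells. Of 24 measured S phase genes, 6 passed the rule, all lower (Mcm2, Pcna, Tyms, Rrm1, Cdc6 and Lig1). At least 1.5-fold lower were 17, with a list median of -0.72 on the log2 scale. Over all 3408 measured genes 2.26% passed as lower and 11.4% were at least 1.5-fold lower. Lig1, the ligase of lagging strands, was at 165 CPM in KO and 422 CPM in WT, 0.390-fold (0.318 to 0.476). Tyms, which makes thymidylate, was at 62.9 CPM in KO and 171 CPM in WT, 0.368-fold (0.264 to 0.508). Other lower genes with a part in replication or repair were Brca2, at 32.9 CPM in KO and 93.9 CPM in WT, and the cyclin Ccne2, at 20.95 CPM in KO and 80.4 CPM in WT. In the other barcodes the list median between libraries was -0.26, and cells in cycle were 12.0% in KO and 24.1% in WT. Without the cells in cycle the median in early B cells was -0.22, and Pcna and Lig1 still passed. The cycle call reads the S phase genes themselves, so no support is drawn from the smaller median. Within the cells in cycle Lig1 was 0.656-fold (0.524 to 0.818) and Tyms 0.632-fold (0.445 to 0.889). Pcna there was 0.788-fold (0.587 to 1.05), an interval that includes 1. Mcm7 was 1.01-fold, Rrm2 1.17-fold and Clspn 1.12-fold in these cells, also with intervals that include 1. The 19 measured G2 and M phase genes had a median of -0.01, with Ccnb2, Ube2c and Cenpf higher in KO. Ube2c, which tags mitotic cyclins for destruction, was at 166 CPM in KO and 50.3 CPM in WT, 3.29-fold (2.22 to 5.04), with 28.3% of the KO UMIs in 1 cell.

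Glycolysis genes were also on the lower side, with a median of -0.55 over 11 measured genes against -0.15 in the other barcodes. None passed the rule and 5 were at least 1.5-fold lower. Among all measured genes 2.26% passed as lower and 11.4% were at least 1.5-fold lower. Ldha, which makes lactate, was at 245 CPM in KO and 458 CPM in WT, 0.536-fold (0.450 to 0.640). Tpi1 was at 182 CPM in KO and 303 CPM in WT and Pgk1 at 146 CPM in KO and 243 CPM in WT. In cycle Ldha was 0.561-fold (0.443 to 0.708), Tpi1 0.543-fold (0.400 to 0.730) and Pgk1 0.730-fold (0.534 to 0.994). Outside cycle Ldha was 0.781-fold (0.556 to 1.12) and Tpi1 0.800-fold (0.550 to 1.19), intervals that include 1. Pgk1 outside cycle was 0.591-fold (0.389 to 0.913). Pgam1 turned, at 0.698-fold in cycle and 1.13-fold (0.626 to 2.19) outside it. Of the 9 measured heat shock chaperones, Hspd1, the mitochondrial chaperonin, was lower, at 230.5 CPM in KO and 523 CPM in WT, 0.441-fold (0.370 to 0.524), and Dnajb1 higher, at 107 CPM in KO and 52.0 CPM in WT, 2.05-fold (1.37 to 3.17). Hspd1 outside cycle was at 204 CPM in KO and 174 CPM in WT, the opposite direction.

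Immediate early and stress genes were the list with the highest median in KO, 0.95 over 20 measured genes. Of these 9 passed the rule, all higher (Fos, Jun, Jund, Egr1, Dusp1, Dusp2, Klf2, Klf6 and Zfp36), and 15 were at least 1.5-fold higher. Shares over all measured genes were 2.08% passing as higher and 7.69% at least 1.5-fold higher. Fos, a subunit of the AP-1 factor that stimulation or stress induces, was at 711 CPM in KO and 166 CPM in WT, 4.29-fold (3.47 to 5.34), and was found in 71 of 77 KO and 23 of 37 WT cells. Jun, its partner, was at 1252 CPM in KO and 523 CPM in WT, 2.39-fold (2.11 to 2.72). Dusp2, a phosphatase that turns off MAP kinases, was at 429 CPM in KO and 147 CPM in WT, 2.91-fold (2.31 to 3.70). The other barcodes differed in the same direction, with a median of 0.57 and with Fos at 1417 CPM in KO and 811 CPM in WT, and whether the difference is larger in early B cells was not tested. Summed over the list, early B cells were at 7804 CPM in KO and 4203 in WT, below the other barcodes at 11395 and 8354 CPM. Within cells in cycle Fos was at 434 CPM in KO and 119 CPM in WT, and outside cycle at 874 CPM in KO and 288 CPM in WT. Without the cells in cycle the list median was 0.54, and Fos, Dusp2 and Zfp36 still passed, while the other 6 were between 1.22-fold (Klf2) and 1.59-fold (Jun). Without cells of at least 3 other-lineage UMIs Klf2 reversed, to 202 CPM in KO and 425 CPM in WT. Only 22 KO and 7 WT cells were left there, too few to read a direction from.

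**Figure D5:**
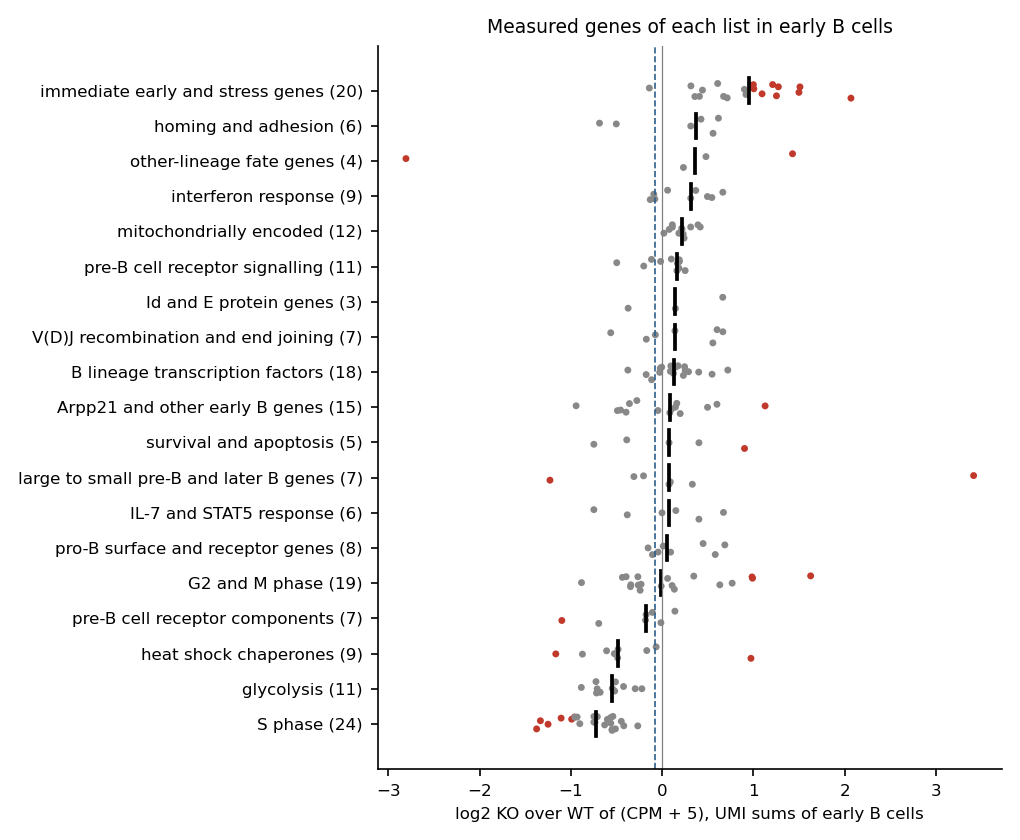
Difference between KO and WT early B cells (log2 KO over WT of CPM + 5) for the measured genes of 19 lists, 1 point per gene, with the list median as a black bar and the number of measured genes in brackets. Red points passed the rule of size, and the dashed line is the median of all 3408 measured genes. The immediate early list is farthest to the right and the S phase list farthest to the left.

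Id2 stood at 16.0 CPM in KO and 50.3 CPM in WT in early B cells (16 and 30 UMIs), 0.317-fold (0.162 to 0.601), and at 149 CPM in KO and 433 CPM in WT in the other barcodes. It had too few UMIs for the rule. After thinning 3.90% of KO and 5.56% of WT early B cells had an Id2 UMI, near the level of 1 UMI, so no difference is read from these shares. The WT UMIs were concentrated, with 10 of 30 in the deepest cell, which also carried 67 UMIs of ILC2 markers. Without the 4 KO and 5 WT cells of at least 20 other-lineage UMIs, Id2 was at 11.7 CPM in KO and 21.7 CPM in WT. The E proteins that Id2 binds did not pass. Tcf3 was at 164 CPM in KO and 147 CPM in WT, Tcf12 at 77.8 CPM in KO and 102 CPM in WT and Tcf4 at 268 CPM in KO and 168 CPM in WT, the last 1.60-fold (1.27 to 2.04). Tcf4 was 1.30-fold (0.897 to 1.88) in cycle and 1.28-fold (0.917 to 1.83) outside it, intervals that include 1. Hes1, a Notch target, was at 135 CPM in KO and 46.9 CPM in WT, 2.87-fold (1.90 to 4.48), and at 120.4 and 36.2 CPM in the other barcodes. Its direction turned between the splits, at 21.6 CPM in KO and 53.5 CPM in WT within cycle and 201 CPM in KO and 29.97 CPM in WT outside it.

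Several of the widest ratios came from genes of other lineages of which 1 cell held most UMIs. Prss34, a basophil protease, was at 551 CPM in KO and 70.4 CPM in WT, 7.82-fold (5.71 to 10.98), and Mcpt8, another, at 407 CPM in KO and 48.6 CPM in WT, 8.37-fold (5.74 to 12.7). A single KO cell held 95.7% of the KO UMIs of Prss34 and 94.1% of those of Mcpt8. That cell also had 52 Ebf1, 3 Cd79a and 15 Vpreb3 UMIs and no Pax5. On the lower side, 1 WT cell held 91.5% of the WT UMIs of Rora, 1 held 100% of those of Klrd1, 1 held 89.5% of those of Icos and 1 held 92.6% of those of Mettl2. Ccl5, a chemokine of NK and T cells, was at 134 CPM in KO and 5.03 CPM in WT, with 50% of the KO UMIs in 1 cell. Loxl2 was at 71.8 CPM in KO and 10.1 CPM in WT, with 62.5% in 1 cell. Over all 148 genes past the rule, 4 of those higher and 5 of those lower in KO had over 50% of their UMIs in 1 cell of the higher library. At least 3 UMIs of other-lineage markers were found in 55 of 77 KO and 30 of 37 WT cells, with a median of 5 and 7 UMIs per cell. Doublets were not removed. Scrublet marked 48 barcodes past the filter in KO, 1 of them an early B cell, and 0 in WT, where it did not work. Taking the highest 8% of UMI counts in its place marked 264 WT barcodes, 9 of them early B cells. Whether these cells were doublets or carried free RNA was not tested.

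Light chain genes also passed the rule, in opposite directions. Igkc was at 119 CPM in KO and 285 CPM in WT, 0.417-fold (0.327 to 0.530), while the other barcodes were at 1039 CPM in KO and 181 CPM in WT. In cells in cycle it was at 137 CPM in KO and 46.5 CPM in WT, the opposite direction, and outside cycle at 108 CPM in KO and 899 CPM in WT. Iglc1, a lambda constant region, was at 83.8 CPM in KO and 3.35 CPM in WT, with 95.2% of the KO UMIs in 1 cell.

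Some of the widest ratios were spread over many cells. Ccl4, a chemokine, was at 74.8 CPM in KO and 6.70 CPM in WT, 11.2-fold (4.18 to 42.0), in 24 KO and 2 WT cells. Rgs1, which damps G protein signalling, was at 83.8 CPM in KO and 18.4 CPM in WT, 4.55-fold (2.41 to 9.45), in 33 and 7 cells. Npc1, a lysosomal cholesterol transporter, was at 54.9 CPM in KO and 11.7 CPM in WT, 4.68-fold (2.12 to 12.2), in 31 and 4 cells, although the other barcodes were level at 56.0 and 57.2 CPM. Without cells of at least 3 other-lineage UMIs Npc1 reversed, to 42.8 CPM in KO and 56.7 CPM in WT. That setting left 22 KO and 7 WT cells, too few to read a direction from. Drc7 was at 103 CPM in KO and 33.5 CPM in WT and Peak1 at 91.8 CPM in KO and 30.2 CPM in WT. The non-coding RNA Mirt1 was at 55.9 CPM in KO and 18.4 CPM in WT. On the lower side Mdn1, a ribosome assembly factor, was at 46.9 CPM in KO and 139 CPM in WT, 0.337-fold (0.231 to 0.488), in 27 and 22 cells. Lap3, an aminopeptidase gene, was at 20.0 CPM in KO and 62.0 CPM in WT. Nup85, of the nuclear pore, was at 20.0 CPM in KO and 57.0 CPM in WT. Mospd3 was at 19.0 CPM in KO and 52.0 CPM in WT, and Cdc6, which loads the replicative helicase, also at 19.0 CPM in KO and 52.0 CPM in WT.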

How the data were processed

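The deposited values were counts of UMIs per gene and barcode for 2 libraries, made by the authors with Cell Ranger 3.1.0, per the file headers, on mm10, per the submitters' processing notes. No source used here names the annotation release. Of the gene IDs, 30934 of 31053 (99.6%) were in GENCODE M21, which gave positions. From these counts, UMIs were summed over the early B cells of each library and scaled to the sum (CPM), with exact 95% Poisson, conditional binomial and Clopper-Pearson intervals (Python 3.11.15, numpy 2.4.6, scipy 1.17.1, pandas 2.3.3). Cells are not replicates, so no test across samples was run. Gene lists were compared by their medians on log2(CPM + 5), a scale that understates differences of low genes. Thinning drew 2000 UMIs per cell with a fixed seed. Alternatives used TMM factors (edgeR 4.0.16, R 4.3.3) and Scrublet (scanpy 1.11.5).

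The genes named between libraries were up to 12 on each side with the widest ratio past the rule of size, without genes of immunoglobulins, T cell receptors, globins, ribosomal proteins, mitochondria or sex linkage and without unnamed genes, with Id2, the genes of the rule and Pax5 added. Against other barcodes, up to 25 genes were named by the lower of the 2 libraries' ratios. Genes named outside these were taken from the lists. Thy1 and Cd7 were named after their values were seen, and so were the light chain genes. The members and lists were chosen with earlier results of these data known. Leaving out cells of at least 20 other-lineage UMIs, the deepest cells, or genes held by 1 cell was chosen after seeing the data.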

Additional observations from a re-analysis of the deposited data

How the results depend on the processing

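The share ratio of KO over WT was 1.58. It was 3.68 with at least 500 genes per barcode and 1.00 with the rule read on counts thinned to 2000 UMIs, and the other settings gave 1.29 to 1.99. Genes higher in KO numbered 71 and genes lower 77. With at most 5% mitochondrial UMIs 50 were lower, 28 of them among the genes first called, and with a surrogate sum of at least 4 also 50, 48 of them among those. With no surrogate minimum 34 were higher. With cells thinned to 2000 UMIs, 20 were higher and 15 lower, of which 8 and 3 were among the genes first called. With cells weighing equally 146 were higher and 121 lower. With at least 20 UMIs and no CPM minimum 209 were higher and 220 lower. Without cells of at least 3 other-lineage UMIs, which left 22 KO and 7 WT cells, 41 were higher and 15 lower, of which 5 and 2 were among the genes first called. TMM factors moved the split to 98 higher and 53 lower, and totals without mitochondrial, ribosomal protein and immunoglobulin genes to 105 and 71. Without cells in cycle 77 were higher and 61 lower, of which 27 and 9 were shared. The S phase median was then -0.22, over genes that the cycle call itself reads. Reversed log2 ratios without cells of at least 3 other-lineage UMIs were Mcpt8 -0.18, Prss34 -0.52, Npc1 -0.37, Rora 1.15, Icos 2.22, Ccne2 3.97, Klf2 -1.06 and Bcl2l11 -0.20. In the 7 WT cells left there Rora, Icos and Ccne2 were at 0 CPM, so no direction is read from these reversals. Without cells of at least 20 they were Mcpt8 -0.34, Prss34 -1.29, Mettl2 0.17, Klrd1 1.19 and Icos 1.74. Without cells in cycle they were Mcpt8 -1.81, Prss34 -2.89, Ube2c -0.54 and Hspd1 0.23. Icos was at 0.24 with cells weighing equally and at 0.46 without the deepest cell of each library. The cause was not tested beyond the cells and genes each setting leaves out. Of the other values for single genes and lists, 838 moved by less than the limit set for them and 156 moved by more without reversing. Igll1 was lower in KO in every setting run, at -1.43 with no surrogate minimum, -0.92 with a surrogate sum of at least 4, -0.85 without cells of at least 3 other-lineage UMIs and -0.52 without cells in cycle, against -1.10 with all cells. Igll1 is a term of the rule and the settings reuse the same libraries, so no support is drawn from their agreement. No paired analysis was possible because there is 1 library per genotype, so no replicate could be left out. The 37 WT cells limit what can be seen for genes under 50 UMIs.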
